A study of Silurus meridionalis with 18 samples.

Results

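The Ovary library of the southern catfish, Silurus meridionalis, was set gene by gene against the libraries of all other tissues profiled with it. It is 1 of 18 libraries, and the other 17 were Testis, Liver, Pancreas, Intestine, Kidney, Head_kidney (the blood-forming and endocrine front kidney of fish), Spleen, Heart, Gill, Muscle, Skin, Mandibular_barbel, Maxillary_barbel, Retina, Olfactory_bulb, Brain and Telecephlon (the telencephalon, spelled as labelled). All were polyadenylated RNA of adult fish from a benthic habitat, with no treatment, strain or genotype named. The labels give neither the stage of the ovary nor how many fish gave each library. Values are FPKM as deposited by the authors, that is, fragments scaled to the length of the gene model and to the size of the library. Ovary was compared with the mean and with the highest of the other 17 libraries on the scale of log2(FPKM + 1), which understates differences of low genes. Each tissue is a single library, so the differences are descriptions without a test or a replicate check.

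The growing oocyte is among the largest cells of an animal, and it fills its cytoplasm with messenger RNA, ribosomes, yolk and cortical granules that serve the early embryo before the embryo's own genes are switched on. It also builds its coat, the zona pellucida or chorion, from proteins that share the zona pellucida domain. Follicle cells around it make steroids and pass signals to it, and an oocyte waits in the first meiotic prophase until hormones start maturation. In teleosts the yolk precursors, the vitellogenins, come mainly from the liver and are taken up through receptors on the oocyte.

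Read depth did not set the Ovary library apart from most others. The estimated depth was 49900000 fragments in Ovary, between 48600000 and 51500000 in the other 9 deep libraries, and between 6400000 (Skin) and 22800000 in the rest. A single fragment on a coding length of 1000 bp was then worth 0.0200 FPKM in Ovary. If the step read as a fragment were a read, these depths would be halved. The same fragment was worth 0.157 FPKM in Skin and 0.104 FPKM in Muscle, so values near 0 there carry less weight.

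Most oocyte markers were high in the library labelled Ovary, while 2 growth factor genes typical of oocytes were near 0. Of 8 oocyte marker symbols, 7 matched 10 gene models. Their summed FPKM was 18794 in Ovary, against 0 to 2.73 in the others, with Testis highest. Most of the Ovary sum came from the oocyte linker histone and zona pellucida genes given below. Factor in the germline alpha (C0J45_22265), a transcription factor that switches on egg coat genes, had 147 FPKM in Ovary, against a lowest of 0, a median of 0 and a highest of 0.449 (Testis). Growth/differentiation factor 9 (C0J45_10081), an oocyte-secreted growth factor, had 0.549 in Ovary, against at most 0.266 (Retina). Bone morphogenetic protein 15 (C0J45_06141), its close relative, had 0.0822 in Ovary, against at most 0.543 (Kidney). Germ cell markers summed to 68.5 in Ovary, against 0 to 9.25 in the others, again with Testis highest.

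Summed granulosa and theca cell markers were far below the summed oocyte markers in Ovary, although both sums were above the median of the other libraries. The sets hold unlike genes, so their sums do not compare amounts of cells. Granulosa cell markers summed to 12 in Ovary, against 0 to 12.2 (Testis), and nearly all of the Ovary value was forkhead box protein L2 (C0J45_17825), a transcription factor of ovarian somatic cells, at 11.8, against a lowest of 0, a median of 0 and a highest of 7.96 (Gill). Aromatase (C0J45_11970), which turns androgens into estrogens, had 0.181 in Ovary, against at most 0.815 (Heart). The follicle-stimulating hormone receptor (C0J45_07295) had 0.131 in Ovary, against at most 2.33 (Testis), and inhibin alpha chain (C0J45_00315) was listed at 0 in Ovary. Theca cell markers summed to 1.44 in Ovary, against 0 to 998 (Head_kidney) with a median of 0.591. In a bulk sample, fewer cells of a type and less RNA per cell cannot be told apart.

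Blood, vessel and connective tissue markers were also low in Ovary. Red blood cell markers summed to 50.3 in Ovary, below all others, which ran from 84.3 (Testis) to 291797 (Head_kidney). A copy named hemoglobin beta embryonic-1.1 (C0J45_04009) was instead highest in Ovary, at 29.8, against at most 16.7 (Testis). Endothelial markers summed to 1.53 in Ovary, against 2.87 to 157, and leukocyte markers to 10.1, against 40.9 to 10634. Ovary was thus the lowest of the 18 libraries for these 3 sets. Stroma markers summed to 121 in Ovary, against 33.1 to 2690, and smooth muscle markers to 80.8, against 28.8 to 17325, so that both lay inside the range of the others. Liver markers summed to 3.51 in Ovary, against 0 to 106105 (Liver), and testis somatic markers to 0.126, against 0.324 to 102. Sperm markers summed to 26.3 in Ovary, against 0 to 20.6 (Kidney), with outer dense fiber protein 3-B (C0J45_12102) at 23.5 as the main part. In Testis the sperm markers summed to only 0.911. Genes set against Testis here are thus set against a library with little of these markers.

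**Figure D1:**
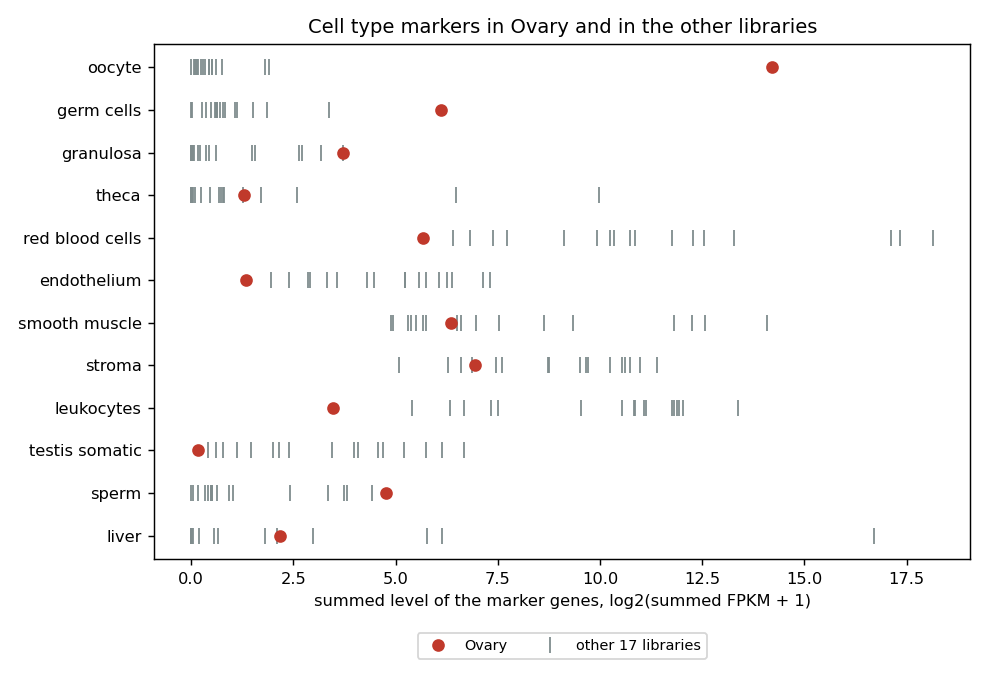
Summed level of each set of cell type markers, as log2(summed FPKM + 1), in Ovary (circle) and in each of the other 17 libraries (ticks). Oocyte markers stand at 18794 FPKM in Ovary and at most 2.73 elsewhere, while red blood cell, endothelium and leukocyte markers are lowest in Ovary.

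On FPKM as deposited, 18697 genes reached 5 FPKM somewhere among the 18 libraries. Among these, Ovary had the most genes that stood far above every other tissue and also a large set of low genes. At least 4-fold above the mean of the others stood 1429 genes (7.64% of those compared), and at least 4-fold below it 4788 genes (25.6%). Ovary did not have the most genes above the mean. By the same limit the other libraries had 146 (Pancreas) to 2919 (Telecephlon), with 2640 in Olfactory_bulb and 2214 in Brain. At an Ovary FPKM of at least 10 and at least 5-fold above the highest other library stood 513 genes (2.74%). At least 4-fold below the lowest other library, with every other library at an FPKM of 5 or more, stood 58 genes (0.31%), a count that was 132 without the Pancreas library. Ovary was the highest of the 18 libraries for 1742 genes (9.32%) and the lowest for 4627.

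The balance of high and low genes rests on the scale. The median difference over all genes compared was -1.15 for Ovary, against -1.49 for Pancreas, -1.32 for Muscle and -1.01 for Testis by the same measure, and it was above 0 for 11 of the other libraries. When all libraries were brought to the same upper quartile of genes above 0, 2982 genes lay above the mean and 3594 below it. With the upper quartile taken over genes at an FPKM of 1 or more, an alternative chosen after seeing the data, the counts were 817 above and 6238 below. With the median difference set to 0 they were 2415 above and 1103 below. The all-gene median was -0.79 under the first of these scalings and -1.42 under the second, and each list below is read beside -1.15. Counts in each list are read beside 7.64% above and 25.6% below over all genes compared. The lists and their members were chosen with earlier results of these data known, so their counts and medians are descriptions only. With the median difference set to 0, every list median is higher by that amount, so that those between -1.15 and 0 turn positive.

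Fewer genes were detected in Ovary than in most other libraries. Of the genes compared, 6309 had an FPKM of at least 1 in Ovary, against 5701 to 15474 in the others with a median of 13468. At an FPKM of at least 100 the number was 698 in Ovary, against 188 to 703 with a median of 584. The 513 genes far above every other library held 32.9% of the summed FPKM in Ovary, and their low share elsewhere follows from how they were chosen. Their median FPKM was 133 in Ovary, against 8.11 in the next-highest library and 1.40 in Testis. A protein name was given for 451 of them and 62 had none.

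The library next below Ovary for these 513 genes varied. It was Spleen for 82, Skin for 67, Head_kidney for 58, Telecephlon for 49, Heart for 46, Retina for 37 and Testis, the other gonad, for 35, while Testis was the highest of the 18 libraries for 129 of all genes compared. Only 57 of the 513 stood at least 100-fold above the next library, and 95 had every other library under an FPKM of 1. The genes just inside the 5-fold limit had differences of 2.32 and 2.33 on log2(FPKM + 1), and those just outside it 2.32 and 2.31. By the same rule, with each library in turn in the place of Ovary, Retina had 308 such genes and Liver 245. Intestine had 165, Gill 117, Heart 114, Muscle 77, Kidney 71 and Pancreas 60. Brain, Olfactory_bulb and Telecephlon had 42 to 53, Skin 33, Spleen 32, Testis 17, Head_kidney 11 and each barbel 2. The other libraries were counted on FPKM as deposited only, not under the other scalings. A gene at like levels in related libraries, such as both barbels, counts for none of them by this rule. The part of related libraries in these counts was not tested.

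**Figure D2:**
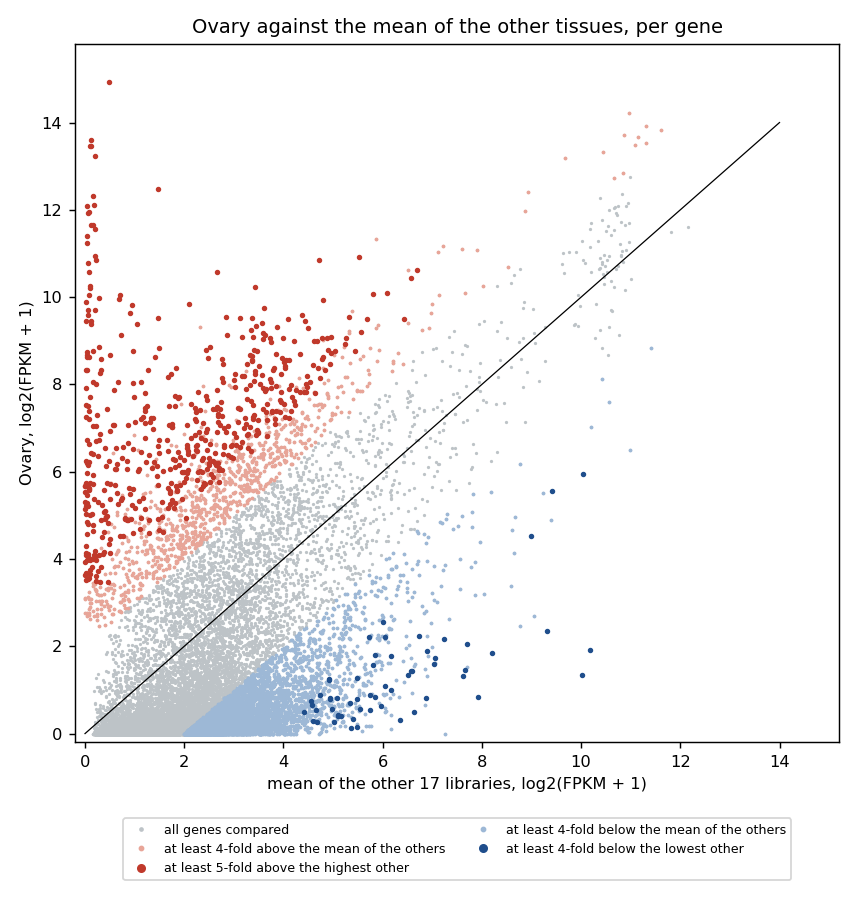
Each point is a gene compared, with its mean log2(FPKM + 1) over the other 17 libraries on the horizontal axis and its log2(FPKM + 1) in Ovary on the vertical axis; the line marks equal values. The 513 dark red genes include a column near 0 on the horizontal axis, genes all but unlisted elsewhere, and the 58 dark blue genes lie at the lower right.

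Egg coat genes were uniformly high in Ovary. All 12 compared gene models of the egg coat list were at least 5-fold above the highest other library, with a median difference of 9.70 from the mean of the others. Zona pellucida glycoprotein 2, like 1 (C0J45_11814), a coat protein, had 9573 FPKM in Ovary, against a lowest of 0, a median of 0.0533 and a highest of 1.81 (Heart). Its neighbour of the same name (C0J45_11816) had 4405 in Ovary, against a lowest of 0, a median of 0.0405 and a highest of 1.10 (Heart). Both lie on the minus strand of chromosome 12, at 23689604 to 23691520 with 8 coding exons and at 23704815 to 23706354 with 7. The coordinates are those of the deposited gene models, whose build was not named.

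A second run of coat genes lies on the plus strand of chromosome 14. Zona pellucida sperm-binding protein 3 (C0J45_12819, from 3489582 to 3491141) had 1065 FPKM in Ovary, against at most 0.907 (Heart). The next copy (C0J45_12820, from 3503702 to 3505641) had 3879 in Ovary, against at most 0.676 (Heart). Zona pellucida glycoprotein 3a (C0J45_12821, from 3508076 to 3515722) had 1763 in Ovary, against at most 0.798 (Heart). All 3 were listed at 0 in at least 1 other library, and no other library reached 1 FPKM. Near-identical copies can share reads, so the split between such neighbours is uncertain.

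The other coat genes covered a wide range of levels in Ovary. Zona pellucida sperm-binding protein 4-like had 1181 FPKM from C0J45_19564, 74.4 from C0J45_00123 and 26.5 from C0J45_20686 in Ovary, and none of the 3 passed 0.571 elsewhere. Zona pellucida glycoprotein 3d tandem duplicate 2 (C0J45_18640) had 697 in Ovary, against at most 0.123 (Testis). Zona pellucida glycoprotein 3b (C0J45_21052) had 44.4 in Ovary, against a lowest of 0, a median of 0.407 and a highest of 2.87 (Pancreas). Levels of single genes are compared here per length, as FPKM.

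Some genes with a zona pellucida domain but no coat name were also high. The grouping by domain, like the other groupings called added below, was chosen after values were seen. Of 41 gene models with this domain, 26 were compared, 18 of them were at least 5-fold above the highest other library and none was 4-fold below the mean. The median difference was 6.01 over the 26, and 0.70 over all 41 with no filter. Members that reach the filter through Ovary alone had to be high there. Of the 41, 22 had less than 1 FPKM in Ovary and 7 of these were listed at 0. The gene model named thymocyte selection-associated high mobility group box protein TOX (C0J45_11824) carries a zona pellucida and a trefoil domain in the deposited annotation and lies on chromosome 12 from 23838834 to 23891931. It had 5671 FPKM in Ovary, against a lowest of 0.0125, a median of 2.0 and a highest of 4.66 (Retina). A gene model without a name (C0J45_05415) with this domain had 3958 in Ovary, against at most 0.330 (Heart). Together the 41 gene models held 4.68% of the summed FPKM in Ovary, against 0.000413% to 0.0442% (Gill).

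**Figure D3:**
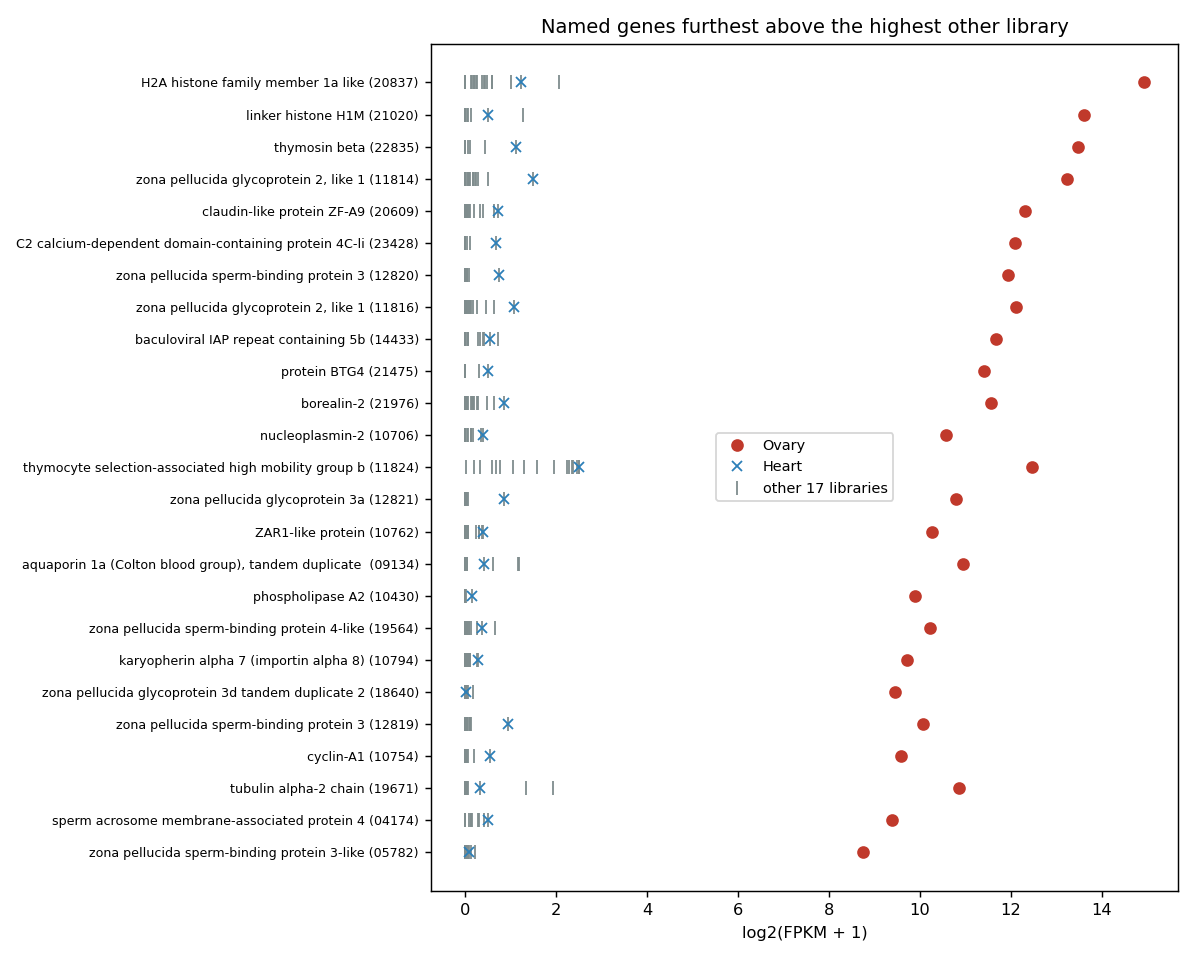
The 25 named genes furthest above the highest other library, with log2(FPKM + 1) in Ovary (red), in Heart (blue crosses) and in the other libraries (ticks); the digits are those of the gene identifier. Ovary stands at 430 FPKM or more for each of them, and the other libraries at 4.66 or less.

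The 25 also include C2 calcium-dependent domain-containing protein 4C-like (C0J45_23428), with 4327 FPKM in Ovary, against at most 0.584 (Heart), and a phospholipase A2 precursor (C0J45_10430), a lipid-cutting enzyme, with 947, against at most 0.106 (Heart). Heart was the next-highest library for 16 of these 25 genes, at very low values. The 25 summed to 111874 FPKM in Ovary, against 18.5 in Heart, 6.75 in Telecephlon, a median of 5.10 and a lowest of 0.789 in the others. The Heart sum was 0.0166% of the Ovary sum. The source of these low values was not tested.

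Egg-type chromatin genes included the most abundant transcript of the library. H2A histone family member 1a like (C0J45_20837), a variant histone of the egg, lies on the plus strand of chromosome 24 at 13317880 to 13318302. It had 31302 FPKM in Ovary, against a lowest of 0, a median of 0.287 and a highest of 3.17 (Skin). Linker histone H1M (C0J45_21020), the linker histone of the oocyte and cleavage embryo, had 12465 in Ovary, against a lowest of 0, a median of 0 and a highest of 1.39 (Testis). Nucleoplasmin-2 (C0J45_10706), a histone chaperone that remodels sperm chromatin in the egg, had 1522 in Ovary, against at most 0.305 (Heart). These 3 genes were each more than 100-fold above the next library.

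General chromatin genes of the same list were more mixed. Nuclear autoantigenic sperm protein (C0J45_00818), a chaperone that stores linker and core histones, had 605 FPKM in Ovary, against a lowest of 0.557, a median of 12.4 and a highest of 22.9 (Spleen). DNA (cytosine-5)-methyltransferase 1 (C0J45_19266), which copies methylation after replication, had 34.3 in Ovary, against a lowest of 0.309, a median of 6.58 and a highest of 17.1 (Head_kidney). High mobility group protein B3 (C0J45_13714) was lower, at 9.33 in Ovary, against a lowest of 6.06, a median of 91.1 and a highest of 206 (Brain). Of 15 compared members, 7 were 4-fold above the mean, 2 below it and 4 at least 5-fold above the highest other. Their median difference of 0.10 hung on the setting, with -0.04 for libraries scaled to the same sum, and 1.51 and -0.44 with the first and second upper-quartile scaling. It was 5.90 over members that reached 20 FPKM somewhere, but members that reach this filter through Ovary alone had to be high there.

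Core histones were mixed as well, with a larger share of high members than over all genes. Of 26 compared gene models with the core histone fold, an added group, 12 were 4-fold above the mean and 6 below it. The latter is near the share over all genes. A gene model without a name that carries the H2B domain (C0J45_03633) had 2409 FPKM in Ovary, against at most 0.218 (Olfactory_bulb). Histone H3.3 is annotated in several copies, of which C0J45_19324 had 920 in Ovary, against a lowest of 10.3, a median of 183 and a highest of 472 (Gill), and C0J45_21589 had 8.41 in Ovary, against a lowest of 9.42, a median of 130 and a highest of 261 (Head_kidney). Polyadenylated RNA was selected, and most replication-dependent histone transcripts in somatic cells lack a poly(A) tail. The part of this selection in the core histone values was not tested.

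Most compared regulators of oocyte growth and of the egg-to-embryo transition were high in Ovary. Of 12 matched gene models of the oocyte regulator list, 3 had less than 1 FPKM in Ovary and 9 were compared, of which 8 were 4-fold above the mean, none was below it and 6 were at least 5-fold above the highest other, with a median difference of 7.13. Over all 12, with no filter on low values, the median was 4.07. Protein BTG4 (C0J45_21475), an adaptor for the clearance of maternal messenger RNA known from mouse, had 2691 FPKM in Ovary, against a lowest of 0, a median of 0 and a highest of 0.403 (Heart). ZAR1-like protein (C0J45_10762) had 1226 in Ovary, against at most 0.315 (Heart), and zygote arrest protein 1 (C0J45_19820) had 395, against at most 0.195 (Heart). Both are RNA-binding proteins of the oocyte. Bucky ball (C0J45_18033), which assembles the Balbiani body and germ plasm in zebrafish, had 409 in Ovary, against at most 0.170 (Heart).

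Transcription factors of this list were lower. POU domain, class 5, transcription factor 1 (C0J45_19151), a regulator of zygotic genome activation in zebrafish, had 64.2 FPKM in Ovary, against a lowest of 0.0614, a median of 0.905 and a highest of 4.83 (Head_kidney). LIM/homeobox protein Lhx8 (C0J45_17480), an oocyte factor in mouse, had 13.4 in Ovary and 14.2 in Gill, while its median over the others was 0. Nanog homeobox (C0J45_03554) had 6.27 in Ovary, against at most 0.320 (Skin).

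Germ plasm and piRNA genes were 10 of 16 at least 4-fold above the mean, with none 4-fold below, and a median difference of 3.02. Over all 28 matched gene models, with no filter on low values, the median was 1.31, and members that reach the filter through Ovary had to differ. The piRNA pathway silences transposons in germ cells. Small RNA 2'-O-methyltransferase (C0J45_19763), which methylates the ends of piRNAs, had 105 FPKM in Ovary, against a lowest of 0, a median of 0.129 and a highest of 0.991 (Retina). Gametocyte-specific factor 1 (C0J45_14382) had 84.2 in Ovary, against at most 1.0 (Testis). RNA helicase Mov10l1 (C0J45_09687), which hands piRNA precursors to processing, had 73.4, against at most 0.457 (Skin). All 3 stood clear of every other library.

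Core germ cell genes of that list were less abundant. Piwi-like protein 2 (C0J45_22297) had 31.1 FPKM in Ovary, against at most 0.416 (Kidney), while piwi-like protein 1 (C0J45_15199) had 2.88, against at most 2.51 (Testis). The helicase named DDX4 (C0J45_10930), the vasa gene of germ plasm, had 9.80 in Ovary, against a lowest of 0, a median of 0.265 and a highest of 3.34 (Testis). Nanos homolog 3 (C0J45_20468), a translational repressor of germ cells, had 14.4 in Ovary and was listed at 0 in all other libraries. Of the 28 gene models matched, 12 did not reach an FPKM of 5 in any library and were not compared.

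Genes for storage and translation of maternal messenger RNA lay on both sides of the other tissues. Of 27 compared members, 6 were at least 5-fold above the highest other library and 10 were 4-fold below the mean, so that the median difference, -1.59, describes neither set. This median was 0.09 with the first upper-quartile scaling. Eukaryotic translation initiation factor 4E-1B (C0J45_21071), a cap-binding protein of oocytes, had 697 FPKM in Ovary, against a lowest of 0, a median of 0.0110 and a highest of 1.02 (Testis). LSM14 homolog B (C0J45_14331), of ribonucleoprotein granules, had 40.7, against at most 1.02 (Telecephlon). Embryonic polyadenylate-binding protein 2 (C0J45_21754) had 38.8, against at most 1.98 (Testis), and polyadenylate-binding protein 1-like (C0J45_15309) had 24.1, against at most 1.05 (Intestine).

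Related factors differed from each other. Protein PAT1 homolog 2 (C0J45_06775), an oocyte repressor of translation, had 16.3 FPKM in Ovary, against at most 0.385 (Retina), whereas PAT1 homolog 1 (C0J45_22947) had 10.6, against a lowest of 2.55, a median of 19.8 and a highest of 25.2 (Gill). The decay activator ZFP36L2 (C0J45_01762) had 2.67 in Ovary, against a lowest of 1.76, a median of 30.7 and a highest of 66.5 (Testis). Nuclease-sensitive element-binding protein 1 (C0J45_09009), a Y-box protein that masks messenger RNA, had 643 in Ovary, inside the range of 197 to 3741 (Muscle) elsewhere.

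Of the copies of transcription factor IIIA, 2 were far above every other library. In fish and frog oocytes, transcription factor IIIA both drives 5S RNA genes and stores the product. A copy named general transcription factor IIIA, b (C0J45_18203) had 380 FPKM in Ovary, against a lowest of 0, a median of 0.0779 and a highest of 1.46 (Testis), and transcription factor IIIA-like (C0J45_18817) had 406, against at most 3.65 (Brain). The copy named plainly transcription factor IIIA (C0J45_21062) had 3.73 in Ovary, against a lowest of 1.61, a median of 7.49 and a highest of 13.1 (Spleen).

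Elongation factor 1-alpha, which brings aminoacyl-tRNA to the ribosome and is stored beside 5S RNA in frog oocytes, split by copy too. Copy C0J45_18336 had 152 FPKM in Ovary, against at most 0.162 (Heart). Copy C0J45_19464 had 456 in Ovary, against a lowest of 235, a median of 2998 and a highest of 6513 (Intestine). Copy C0J45_19463 had 3.51, below the lowest other value of 27.2, with a median of 128 and a highest of 3929 (Muscle). Of the 13 compared members of this list, 3 were 5-fold above the highest other library and 4 were 4-fold below the mean. Their median difference, -0.53, was 0.53 with the first upper-quartile scaling.

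Division genes were high in Ovary, and prophase genes of meiosis were mostly low in every library. Of 20 gene models matched on the meiosis list, 6 were compared, 2 were 4-fold above the mean and none below, with a median difference of 0.05. It was -0.04 with libraries scaled to the same sum, and 2.86 and -0.23 with the first and second upper-quartile scaling. Over all matched members with no filter it was 0.23. Over members that reached 20 FPKM somewhere it was 7.80, but members that reach this filter through Ovary alone had to be high there. Homologous-pairing protein 2 homolog (C0J45_12844), a partner of the meiotic strand-exchange proteins, had 432 FPKM in Ovary, against a lowest of 0, a median of 1.01 and a highest of 3.18 (Head_kidney). This gene passed the filter through Ovary alone. Synaptonemal complex protein 1 (C0J45_00549), the central rod of the synaptonemal complex, had 7.46 in Ovary, against at most 1.92 (Gill). The other 18 gene models of this list had less than 4 FPKM in Ovary.

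Among genes of meiotic maturation and cell division, 30 of 53 were 4-fold above the mean, none was 4-fold below and 15 were at least 5-fold above the highest other library. The median difference was 3.01, and 2.74 over all matched members with no filter. Head_kidney, where blood cells divide, was the highest other library for 39 of the 53. Baculoviral IAP repeat containing 5b (C0J45_14433), a survivin of the chromosomal passenger complex, had 3240 FPKM in Ovary, against a lowest of 0, a median of 0.0200 and a highest of 0.642 (Gill). Borealin-2 (C0J45_21976), another passenger subunit, had 3024 in Ovary, against at most 0.813 (Heart).

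The related passenger genes were far less abundant in Ovary. The other gene model for a baculoviral IAP repeat protein of this kind (C0J45_07216) had 25.8 FPKM in Ovary, against a lowest of 0, a median of 0.898 and a highest of 10.3 (Head_kidney). Borealin (C0J45_19413) had 5.34 in Ovary, against a highest of 23.1 (Head_kidney). Inner centromere protein A (C0J45_09702) had 39.4 in Ovary, against at most 9.82 (Skin), and aurora kinase B (C0J45_13350) 55.7, against at most 23.8 (Head_kidney).

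Cyclins and the anaphase machinery were high as well. Cyclin-A1 (C0J45_10754), a germline cyclin in mouse, had 768 FPKM in Ovary, against a lowest of 0, a median of 0 and a highest of 0.464 (Heart), while cyclin-A2 (C0J45_04734) had 29.4, against at most 25.3 (Head_kidney). Cyclin-B1 (C0J45_21172), the partner of the kinase that drives maturation, had 285 in Ovary, against a lowest of 0, a median of 1.39 and a highest of 25.4 (Head_kidney). Cyclin-B2 (C0J45_21781) had 264, against at most 8.55 (Head_kidney). Cyclin-dependent kinase 1 (C0J45_07715), their catalytic partner, had 26.9 in Ovary and 46.8 in Head_kidney.

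Regulators of the anaphase-promoting complex were among the high genes. Cell division cycle protein 20 (C0J45_17441), its activator, had 456 FPKM in Ovary, against a lowest of 0, a median of 0.999 and a highest of 18.4 (Head_kidney). Ubiquitin-conjugating enzyme E2 C (C0J45_00459) had 544, against at most 37.1 (Head_kidney), and pituitary tumor-transforming 1 (C0J45_04967), the securin, had 735, against at most 14 (Head_kidney). F-box only protein 43 (C0J45_03951), which holds the egg in metaphase II in vertebrates, had 232, against at most 2.48 (Head_kidney), and F-box only protein 5 (C0J45_02103) had 150, against at most 16.2 (Head_kidney). The kinase Mos (C0J45_11237), which acts in the same arrest, had 19.2, against at most 1.89 (Kidney). Kinesin-like protein KIF20A (C0J45_06005), a motor of cytokinesis, had 840, against at most 1.37 (Skin).

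DNA replication genes were also high in Ovary for the most part. Of 44 compared members, 23 were 4-fold above the mean, 3 were below and 7 were at least 5-fold above the highest other library, with a median difference of 2.11, which was 1.68 over all matched members with no filter. Head_kidney was highest of the others for 30. Geminin (C0J45_19596), which blocks re-licensing of origins, had 746 FPKM in Ovary, against a lowest of 0.706, a median of 6.31 and a highest of 23.2 (Olfactory_bulb). Proliferating cell nuclear antigen (C0J45_10498), the sliding clamp, had 518, against a lowest of 1.58, a median of 32.7 and a highest of 128 (Head_kidney). GINS protein PSF3 (C0J45_05334), of the replicative helicase, had 319, against at most 9.21 (Head_kidney).

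Subunits of 1 complex were uneven. GINS subunits other than PSF3 had 44.9 (C0J45_15162), 10.4 (C0J45_01609) and 8.45 FPKM (C0J45_12604) in Ovary. The licensing factor MCM7 (C0J45_13330) had 154 in Ovary, against a highest of 58.0 (Head_kidney), whereas MCM2 (C0J45_17013) had 1.52, against a highest of 21.9 (Head_kidney). Replication protein A showed the same, with the 14 kDa subunit (C0J45_23440) at 73.9, against at most 28.7 (Head_kidney), and the 70 kDa subunit (C0J45_11460) at 1.17, below the lowest other value of 1.25. Protein was not measured.

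Nuclear import and pore genes were mixed, with 1 importin far above every other library. Karyopherin alpha 7 (C0J45_10794), an importin of oocytes and early embryos, had 835 FPKM in Ovary, against a lowest of 0, a median of 0.0295 and a highest of 0.215 (Heart). Importin subunit alpha-1 was also higher, with 106 from C0J45_13135, against at most 36.0 (Head_kidney), and 86.2 from C0J45_00230, against at most 22.8 (Mandibular_barbel). Importin subunit alpha-3 (C0J45_17910) was lower, at 0.561 in Ovary, against a lowest of 3.89, a median of 35.8 and a highest of 55.4 (Telecephlon). Nuclear pore complex protein Nup93 (C0J45_12243), of the pore's inner ring, had 513, against a lowest of 2.98, a median of 15.3 and a highest of 88.1 (Liver). Of 33 compared members, 13 were 4-fold above the mean and 9 below, the latter near the share over all genes. Their median was 0.56. It was 2.45 and -0.19 with the first and second upper-quartile scaling. Over members that reached 20 FPKM somewhere it was 2.38, but members that reach this filter through Ovary alone had to be high there.

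Proteasome and ubiquitin genes were mixed. Of 33 compared members, 8 were 4-fold above the mean, a larger share than over all genes, and 4 below, a smaller one. Their median was 0.75, and 2.25 and -0.24 with the first and second upper-quartile scaling. Proteasome subunit alpha type-4 (C0J45_09469) had 1091 FPKM in Ovary, against a lowest of 7.4, a median of 83.4 and a highest of 159 (Spleen). Its partners in the same ring were less abundant, with alpha type-5 (C0J45_17299) at 36.7, against at most 87.9 (Spleen), and alpha type-1 (C0J45_05516) at 51.3, against at most 180 (Muscle). Beta type-5 (C0J45_05778), a catalytic subunit, had 1.29 in Ovary, below the lowest other value of 2.56.

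Cytoplasmic ribosomal proteins took a large share of the library without standing out singly. The 87 gene models held 39.96% of the summed FPKM in Ovary, against 6.03% to 57.5% (Skin). Of 86 compared, 12 were 4-fold above the mean, 1 was below and none was 5-fold above the highest other library, which was Skin for 59. The median difference was 0.70, and 2.15 and -0.38 with the first and second upper-quartile scaling. Ribosomal protein L21 (C0J45_18202), of the large subunit, had 19014 FPKM in Ovary, against a lowest of 715, a median of 1825 and a highest of 8450 (Skin). Ribosomal protein L31 (C0J45_24278) had 9265, against at most 2310 (Intestine). Ribosomal protein S15 (C0J45_09168), of the small subunit, had 192 in Ovary, below the lowest other value of 602.

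Mitochondrial ribosomal proteins, an added group encoded in the nucleus, were more clearly high. Of 74 compared, 46 were 4-fold above the mean, 1 was below, 15 were at least 5-fold above the highest other library and 52 were highest in Ovary, with a median difference of 2.60. Heart was the highest other library for 42. Mitochondrial ribosomal protein L55 (C0J45_15617) had 543 FPKM in Ovary, against a lowest of 0.665, a median of 10.9 and a highest of 29.7 (Heart). Mitochondrial ribosomal protein L53 (C0J45_19586) had 405, against at most 20.5 (Retina). The exception, S34 (C0J45_12929), had 3.34, against a lowest of 2.81, a median of 20.1 and a highest of 48.5 (Heart).

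Subunits of the respiratory chain and ATP synthase were mixed. Of 82 compared nuclear-encoded subunits, an added group without assembly factors, 13 were at least 4-fold above the mean of the others, 12 were at least 4-fold below it and none was 5-fold above the highest other library, which was Heart for 54. Their median difference was 0.24, and it was 1.69 with the first upper-quartile scaling and -0.80 with the second. The share above the mean was larger than over all genes, and the share below it was smaller. Cytochrome b-c1 complex subunit 7 (C0J45_19453) had 1050 FPKM in Ovary, against at most 561 (Heart), while subunit 1 of the same complex (C0J45_00606) had 4.33, below the lowest other value of 9.27. The 8 mitochondrially encoded transcripts held 1.81% of the summed FPKM in Ovary, against 0.0706% to 55.8% (Testis), with a median of 3.26%.

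Machinery that makes and processes RNA was high in several added groups. Subunits of RNA polymerase I, II and III were 16 of 30 at least 4-fold above the mean and 3 below, with a median of 2.26. The shared subunit RPABC4 (C0J45_18802) had 772 FPKM in Ovary, against a lowest of 3.14, a median of 24.1 and a highest of 35.4 (Intestine), and polymerase I subunit RPA43 (C0J45_19657) had 353, against at most 16.3 (Skin). Proteins with the LSm domain, the ring around spliceosomal and U6 RNA, were 10 of 16 above and 1 below, with a median of 2.22. The snRNP polypeptides B and B1 (C0J45_00481) had 1576, against a lowest of 13.7, a median of 111 and a highest of 224 (Skin).

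Ribosome assembly factors and Mediator subunits were more mixed. Assembly factors were 28 of 59 above and 4 below, with a median of 1.44, and Mediator subunits, which link activators to polymerase II, 10 of 34 above and 1 below. The Mediator median was 0.62, and 2.12 and -0.25 with the first and second upper-quartile scaling. Protein MAK16 homolog (C0J45_15180), of the large-subunit precursor, had 1845 FPKM in Ovary, against a lowest of 8.70, a median of 26.2 and a highest of 91.8 (Testis). Pescadillo (C0J45_22336), of the same pathway, had 642, against at most 18.8 (Skin). Mediator subunit 9 (C0J45_06795) had 340, against at most 23.6 (Testis).

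Genes high in Ovary were shorter at the median than all genes compared, as were the genes below every other library. Several of these groups are short. The median coding length was 918 bp over the 513 genes, against 1281 bp over all genes compared. Over the 58 genes at least 4-fold below the lowest other library it was 799.5 bp. It was 591 bp for mitochondrial ribosomal proteins, 346.5 bp for the LSm group, 640.5 bp for polymerase subunits and 471 bp for cytoplasmic ribosomal proteins. In 5 bins of genes from short to long, the median difference of Ovary was -0.93, -1.03, -1.12, -1.27 and -1.39, and the share at least 5-fold above the highest other library was 4.61%, 3.77%, 2.62%, 1.88% and 0.829%. The part of length in the group differences was not tested.

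**Figure D4:**
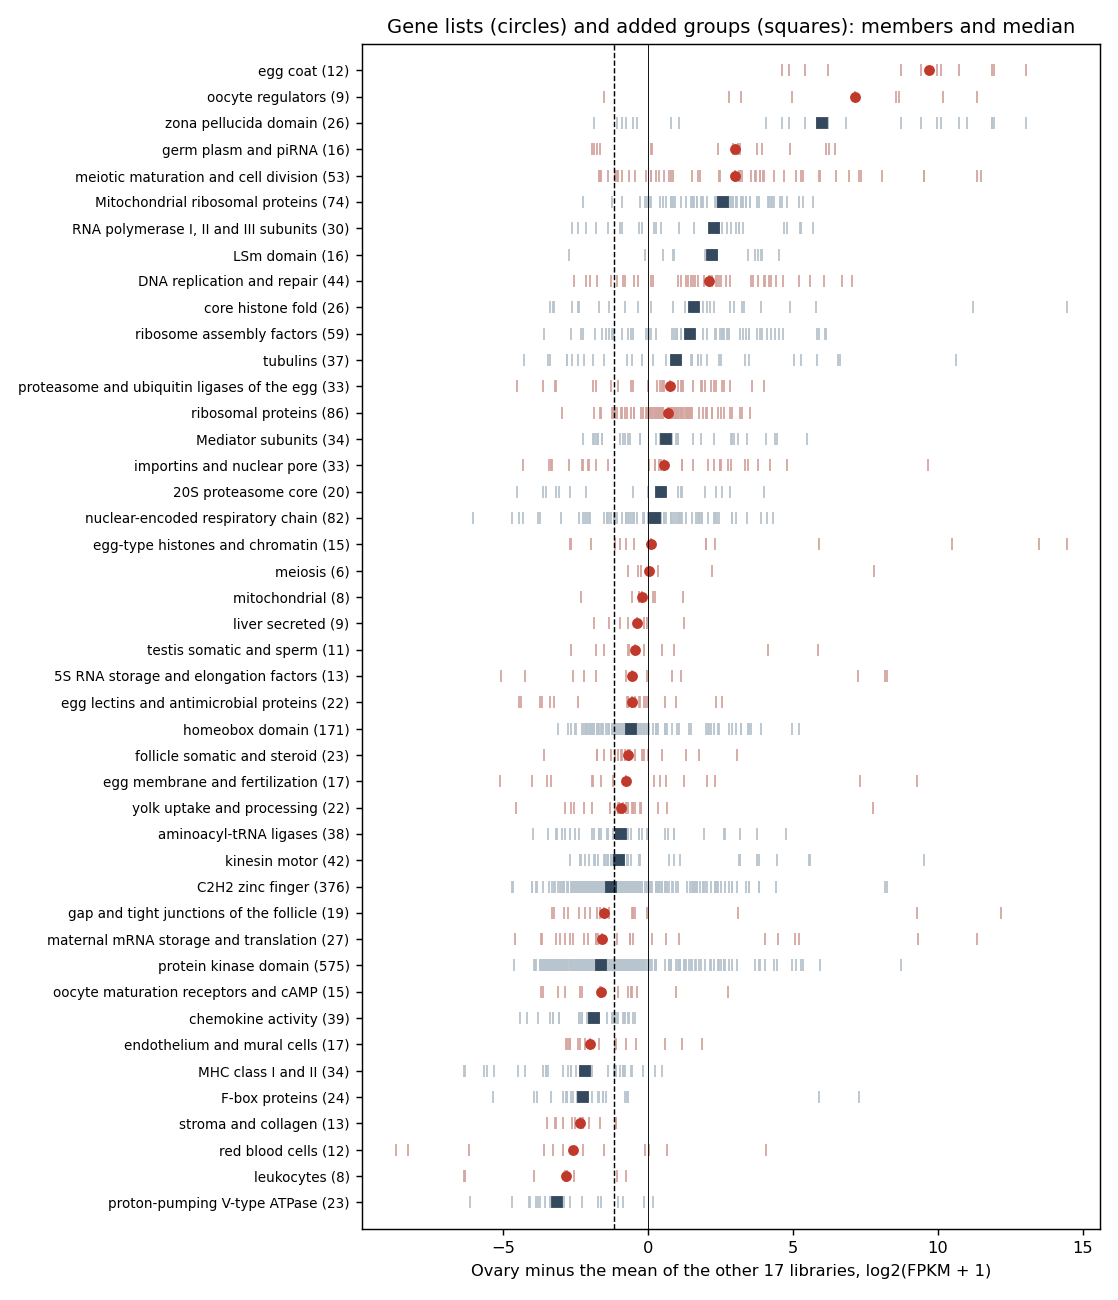
Difference between Ovary and the mean of the other 17 libraries, on log2(FPKM + 1), for each compared member (ticks) and the median (circle for a list, square for an added group) with the number compared in brackets; the dashed line is the all-gene median of -1.15. Egg coat (9.70), oocyte regulators (7.13) and zona pellucida domain genes (6.01) lie at the top, although over all matched members, with no filter on low values, the last 2 medians are 4.07 and 0.70; V-type ATPase subunits (-3.12) lie at the bottom.

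Genes for membrane proteins included several of the genes furthest above the next library. Claudin-like protein ZF-A9 (C0J45_20609), a tight junction family member, had 5095 FPKM in Ovary, against a lowest of 0, a median of 0.0329 and a highest of 0.638 (Heart). Claudin-4 (C0J45_13941) had 999 in Ovary, against at most 12.3 (Gill), while its other copy C0J45_17887 was listed at 0 in Ovary and had 545 in Gill. Aquaporin 1a tandem duplicate (C0J45_09134), a water channel that swells the egg in some marine teleosts, had 1966, against a lowest of 0, a median of 0 and a highest of 1.26 (Telecephlon).

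Fertilization genes of the list were few. The gene named sperm acrosome membrane-associated protein 4 (C0J45_04174) had 669 FPKM in Ovary, against a lowest of 0, a median of 0 and a highest of 0.406 (Heart). Its zebrafish relative, Bouncer, is an egg membrane protein needed for sperm entry. A second gene of that name (C0J45_10224) had 0.0148 in Ovary and 972 in Mandibular_barbel. Ovochymase-1 (C0J45_16122), an egg protease in frog, had 166, against at most 0.478 (Gill). Tetraspanins, which take part in gamete fusion in mouse, were not above the other libraries, with CD9 antigen (C0J45_16253) at 35.9, inside the range of 0.705 to 384 (Gill), and CD81 antigen (C0J45_21879) at 1.93, below the lowest other value of 6.12. Of 17 compared, 4 were 4-fold above the mean and 4 below, with a median of -0.77 that was 0.67 with the first upper-quartile scaling.

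Yolk uptake showed a single high receptor gene. Low-density lipoprotein receptor-related protein 2 (C0J45_09246), a large endocytic receptor, had 256 FPKM in Ovary, against a lowest of 0.00546, a median of 0.124 and a highest of 0.566 (Kidney), and another copy (C0J45_03092) had 0.0125 in Ovary and 173 in Kidney. The very low-density lipoprotein receptor (C0J45_10996), the classical vitellogenin receptor of egg-laying vertebrates, had 8.46 in Ovary, inside the range of 0.515 to 23.4 (Telecephlon). Cathepsin D (C0J45_12209), which cuts vitellogenin into yolk proteins, had 2.05, below the lowest other value of 6.06. Of 22 compared members, 1 was 4-fold above the mean and 5 below, near the shares over all genes, with a median of -0.92. The 3 gene models named vitellogenin had at most 0.00682 in Ovary and at most 0.143 (Gill) elsewhere.

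Hormone response and coupling genes of the follicle were more often 4-fold below the mean than 4-fold above it, as were all genes compared. Of 15 compared members of the maturation receptor and cAMP list, 1 was 4-fold above the mean and 6 below, with a median of -1.63. This median was -0.63 over all matched members with no filter, where the all-gene median was -0.72. Membrane-associated progesterone receptor component 2 (C0J45_08365), a heme-binding protein, had 73.3 FPKM in Ovary, against a lowest of 1.48, a median of 10.5 and a highest of 31.0 (Maxillary_barbel). The membrane progestin receptor alpha-B (C0J45_04262), which receives the maturation steroid in fish, was listed at 0 in Ovary, against a median of 5.87 and a highest of 29.9 (Brain). Gap junction alpha-1 protein (C0J45_20205) was also listed at 0, against a median of 9.51 and a highest of 178 (Brain). Gap and tight junction genes were 3 of 19 above and 7 below, with a median of -1.52 that was -0.68 with no filter. Of these genes, 2 were at least 5-fold above the highest other library. The list summed to 6129 FPKM in Ovary, against at most 1224 (Gill). Most of that sum came from the claudin genes C0J45_20609 and C0J45_13941 given above, and the median compared member had 0.0889 in Ovary. Gap junction gamma-1 protein (C0J45_03132) had 24.3 in Ovary, against a median of 1.13 and a highest of 23.8 (Maxillary_barbel).

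The 58 genes below every other library were, by the rule, at an FPKM of 5 or more in all the others. Cyclin-G1 (C0J45_10090), a p53 target, had 2.57 FPKM in Ovary, against a lowest of 134, a median of 281 and a highest of 1106 (Muscle). Eukaryotic translation initiation factor 3 subunit B (C0J45_19368) had 2.01 in Ovary, against a lowest of 55.0, a median of 160 and a highest of 266 (Head_kidney). Beta-2 microglobulin (C0J45_15228), the light chain of MHC class I, had 4.10, against a lowest of 57.7, a median of 855 and a highest of 3782 (Mandibular_barbel). Translationally-controlled tumor protein (C0J45_20595) had 22 in Ovary, against a lowest of 241, a median of 585 and a highest of 1007 (Intestine).

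Further genes of this end were nearly absent from the library. Selenoprotein Pa (C0J45_14222), a selenium carrier, had 0.778 FPKM in Ovary, against a lowest of 30.0, a median of 236 and a highest of 6263 (Kidney). TAR DNA-binding protein 43 (C0J45_00512), a splicing regulator, had 0.0919, against a lowest of 7.44, a median of 58.3 and a highest of 104 (Olfactory_bulb). Eukaryotic elongation factor 2 kinase (C0J45_06880), a brake on translation, had 0.406, against a lowest of 12.3, a median of 21.4 and a highest of 37.1 (Spleen). All 3 genes belong to the set chosen for a lowest other library at least 4-fold above Ovary. The only other libraries with a gene below all the rest by this rule were Pancreas with 19, Muscle with 10 and Skin with 1.

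Whole groups were low beside these single genes. V-type ATPase subunits, the proton pump of lysosomes and other acid compartments, were 17 of 23 at least 4-fold below the mean and none above, with a median of -3.12. The 16 kDa proteolipid subunit (C0J45_12915), which forms the ring of the pump, had 0.411 FPKM in Ovary, against a lowest of 9.60, a median of 139 and a highest of 728 (Telecephlon). MHC class I and II genes, with the invariant chains, were 18 of 34 below and none above, and chemokine genes 19 of 39 below and none above. Their medians were -2.18 and -1.86. Over all matched members with no filter they were -1.17 and -1.33, where the all-gene median was -0.72. Members that reach the filter through other libraries alone could not be highest in Ovary. CD74 (C0J45_10016), the invariant chain of MHC class II, had 5.48, against a lowest of 22.9, a median of 1074 and a highest of 6664 (Spleen). Leukocyte markers were low in the same library, as given above, and their part in these groups was not tested.

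Genes shared by both gonads were ranked with no minimum set. A place in this ranking thus does not make a gene particular to the gonads. By the lower of the 2 gonads against the highest of the other 16 libraries, the leading named gene was enkurin (C0J45_24439), known from the sperm tail, with 85.1 FPKM in Ovary and 16.8 in Testis. Coiled-coil domain-containing protein 34 (C0J45_09707) had 23.3 in Ovary and 18.6 in Testis, against a median of 3.54. The ranking also holds genes that were low in Testis, such as intracellular hyaluronan-binding protein 4 (C0J45_13763), an RNA-binding protein, with 434 in Ovary and 1.57 in Testis, its highest other library.

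Gene models with the same trimmed protein name stood at opposite ends in some families. Names were matched without regard to case, after isoform endings, the words precursor and partial, and a final "-like" were removed. Gene models under the same trimmed name, called copies here, can thus be different genes. Among 2556 protein names shared by 2 to 10 compared gene models, 54 had a copy at least 4-fold above and another at least 4-fold below the mean of the others in Ovary, against 1 to 20 with a median of 4 when each other library took its place. Skin had 20, Liver 13 and Muscle 12. Ovary also has many genes past both limits, whereas Pancreas has 146 above and 4957 below, Skin 679 and 892, and Olfactory_bulb 2640 and 66. The part of these counts in the number of split names was not tested.

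Cytoskeletal genes gave several of the wide gaps between copies. Thymosin beta (C0J45_22835), which binds actin monomers, had 11290 FPKM in Ovary, against a lowest of 0, a median of 0 and a highest of 1.18 (Heart), and its other copy (C0J45_14065) was listed at 0 in Ovary with 233 in Telecephlon. The actin-severing gelsolin had 131 from C0J45_22581, against at most 0.503 (Retina), and 0.506 from C0J45_19203, below the lowest other value of 2.80. Tubulin alpha-1B chain had 680 from C0J45_14867, against at most 34.9 (Skin), and 4.51 from C0J45_17086, against a highest of 1051 (Telecephlon). Tubulin alpha-2 chain (C0J45_19671), which is not among the split names, had 1844, against at most 2.79 (Gill).

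Enzymes and storage proteins split as well. Casein kinase I had 92.1 FPKM from C0J45_08862 in Ovary, against at most 1.29 (Spleen), and 0.661 from C0J45_07254, against a lowest of 3.87 and a highest of 53.9 (Gill). RNA polymerase III subunit RPC7 had 32.7 from C0J45_22478, against at most 1.70 (Retina), and 0.0910 from C0J45_04046, against a highest of 22.7 (Retina). Ferritin heavy chain, the iron store, had 2306 from C0J45_12708, against at most 1106 (Liver), and 60.5 from C0J45_23843, against a lowest of 285 and a highest of 11057 (Intestine). Reads from near-identical copies can be assigned to either, so single-copy values are uncertain. Every other library had the high copy named above at 2.79 or less for thymosin beta, gelsolin, casein kinase I and RPC7. The same held for the tubulin alpha-2 gene. A further casein kinase I copy (C0J45_12800) had 141.7 in Ovary, against at most 41.6 (Mandibular_barbel). The high copy reached 34.9 (Skin) for tubulin alpha-1B and 1106 (Liver) for ferritin heavy chain. The part of shared reads in these splits was not tested.

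**Figure D5:**
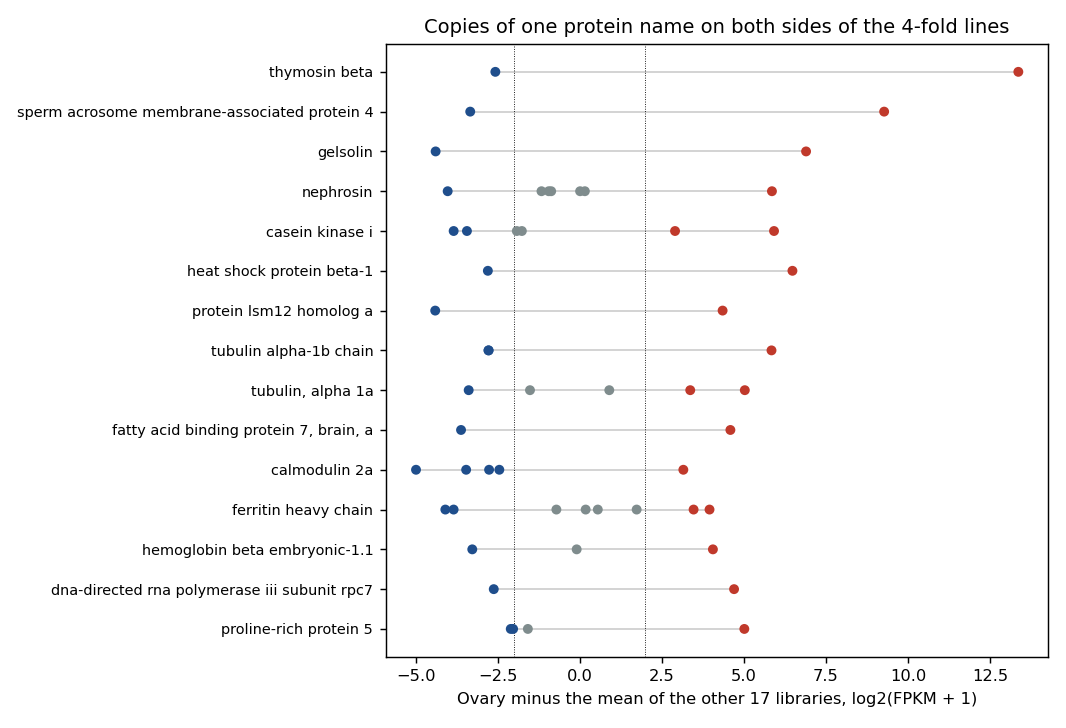
The 15 protein names, trimmed of isoform and like endings, with the widest gap between gene models of that name. Each circle is a gene model at its difference between Ovary and the mean of the other 17 libraries on log2(FPKM + 1). Dotted lines mark 4-fold. Thymosin beta spans 15.93 and sperm acrosome membrane-associated protein 4 spans 12.61 on this scale.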

How the data were processed

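Polyadenylated RNA of 18 adult tissues, 1 library each, was prepared with Trizol, DNase I and a paired-end kit, per the labels' protocols. The authors deposited FPKM for 25390 gene models, and StringTie 1.3.4d is named in the submitters' processing notes. The aligner and build have no entry there (not given in the sources used here). All 25390 identifiers matched the deposited feature table (25451 gene models), which gave protein names, domains, positions and coding lengths. All coding lengths are multiples of 3, so they hold no UTRs.

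From these values log2(FPKM + 1) was computed, and Ovary was compared with the mean, the highest and the lowest of the other 17 libraries. Genes at an FPKM of 5 or more in any library were compared. No test was possible with 1 library per tissue. Depth was estimated from the smallest step of FPKM times coding length. Whole reads were not recovered, so no counting interval is given. The scripts were tested on simulated data, in which 200 genes planted at 20-fold were called by each rule among 9444 genes; genes near the limits were not simulated.

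Named genes are the 25 furthest above the highest other library, the 15 highest in Ovary, the 15 lowest against the lowest other library and against the mean, the 10 shared with Testis, and matched members of 25 lists. Of 466 list symbols, 79 had no match by protein name. The members and lists were chosen with earlier results of these data known. The 19 added groups, genes without a name and split copies were chosen after their values were seen. Alternatives changed the pseudocount, filter, threshold, scaling and libraries; leaving out Heart and the upper quartile of genes at an FPKM of 1 or more were added after seeing the data. Python 3.11.15, numpy 2.4.6, pandas 2.3.3, scipy 1.17.1 and matplotlib 3.10.9 were used.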

Additional observations from a re-analysis of the deposited data

How the results depend on the processing

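The 4 counts for Ovary (1429 above the mean, 4788 below the mean, 513 above the highest, 58 below the lowest) moved by over 1.5 times in these cases. A pseudocount of 0.1 gave 9665 below the mean. A 10-fold limit gave 647, 858, 273 and 6, and the median difference set to 0 gave 2415, 1103, 982 and 8, in the same order. The same upper quartile of genes above 0 gave 2982 above the mean, 1198 above the highest and 238 below the lowest. The same upper quartile of genes at an FPKM of 1 or more, added after seeing the data, gave 817, 265 and 427 for these. The count below the lowest was also 34 with the same sum, 18 with abundant genes left out, 132 without Pancreas and 102 among libraries of like depth. The median of the red blood cell list turned to 0.24 without a filter, against -2.60 with it. Of 25 list medians, 10 stayed on the same side of 4-fold in every setting, as did 5 of 19 added group medians and 133 of the 159 gene differences tried. Split protein names (54) were 138 with a pseudocount of 0.1, 8 at 10-fold and 96 with the first upper quartile. The causes were not tested. No paired analysis was possible because each tissue is 1 library. Shallow Skin and Muscle libraries limit low values there.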

Other observations

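Some genes without a protein name were also far above every other library in Ovary. C0J45_14943, with a coding length of 303 bp and no annotated domain, had 11201 FPKM in Ovary, against a lowest of 0, a median of 0.0334 and a highest of 0.673 (Heart). C0J45_09673 had 3217 in Ovary, against at most 0.570 (Testis), and C0J45_02353, with immunoglobulin domains, had 62.2, against at most 0.111 (Spleen). These genes were chosen after their values were seen.

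Other added groups were less uniform in Ovary. Over all genes compared, 7.64% were at least 4-fold above the mean and 25.6% at least 4-fold below it. Genes with a protein kinase domain were 24 of 575 at least 4-fold above the mean and 201 below, with a median of -1.62. Genes with a C2H2 zinc finger were 21 of 376 above and 83 below, near the shares over all genes, with a median of -1.28. Homeobox genes were 17 of 171 above and 12 below, with a median of -0.60. Kinesin motors were 8 of 42 above and 5 below, with a median of -0.98. F-box proteins were 2 of 24 above and 13 below, with a median of -2.24 that was -1.55 over all matched members with no filter. Aminoacyl-tRNA ligases were 5 of 38 above and 9 below, the latter near the share over all genes. Their median of -0.92 was 0.42 with the first upper-quartile scaling. Tubulins were 11 of 37 above and 10 below, with a median of 0.98 that was 2.61 and -0.06 with the first and second. The 20S proteasome core was 4 of 20 above and 7 below, with a median of 0.45 that was 1.92 and -0.60 with the first and second.

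Lists of other cells and functions lay on both sides of the all-gene median of -1.15. Egg lectins and antimicrobial proteins were 2 of 22 above and 7 below, with a median of -0.54. Follicle somatic and steroid genes were 1 of 23 above and 1 below, with a median of -0.68. Endothelial and mural genes were 0 of 17 above and 9 below, stroma 0 of 13 above and 10 below, leukocytes 0 of 8 above and 6 below, and red blood cells 1 of 12 above and 7 below, with medians of -2.01, -2.35, -2.82 and -2.60 in that order. Testis somatic and sperm genes were 2 of 11 above and 1 below, with a median of -0.45, and liver-secreted genes 0 of 9 above and below, with a median of -0.38. Collagen alpha-1(I) chain (C0J45_13027), of connective tissue, had 7.69 FPKM in Ovary, against a lowest of 8.31, a median of 98.7 and a highest of 599.6 FPKM (Gill). Hemoglobin subunit beta-1 (C0J45_19307) had 2.74 in Ovary, against a lowest of 28.1, a median of 890 and a highest of 146911 (Head_kidney).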
